A study of Sciaenops ocellatus with 36 samples.

Results

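The genes described here are 53 genes of the cell cycle and of DNA replication, read in whole embryos and larvae of a marine fish, the red drum (Sciaenops ocellatus), with and without crude oil in the water. They were chosen by name: a row of the deposited count tables belongs to the set if its symbol equals 1 of 53 listed symbols, out of 56346 rows per table. By role they are 13 genes of origin licensing and the replicative helicase, 13 of DNA synthesis, 4 of nucleotide synthesis, 6 cyclins and cyclin-dependent kinases, and 17 of mitosis. The rows carry human gene symbols, so each row holds the fish reads counted under that name, related fish genes may be merged in it, and the roles given are those of the human genes.

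A dividing cell loads the MCM helicase onto replication origins, copies its DNA once with polymerases held by the PCNA clamp, and then separates the copies under the control of cyclin B with CDK1 and of the mitotic kinases. The building blocks for the copy come from ribonucleotide reductase (a large subunit, RRM1, and a small subunit, RRM2) and from thymidylate synthase. Transcripts of these genes are abundant in proliferating embryonic tissue and become scarcer as cells leave the cycle and differentiate.

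The series asks how gene expression in these embryos and larvae responds to oil of the Deepwater Horizon spill. All embryos, from brood stock tanks, were bathed in formalin and then kept at 25 °C in oil or in control water without oil (labelled 0 g/l) until 24, 48 or 72 hours post-fertilization (hpf). One oil was a non-weathered surrogate of the source oil (labelled Mass) at a labelled concentration of 0.27%. The other was a naturally weathered slick oil at 2.50%, and each had a control series of its own. What the percentages refer to is not given. Each library was made from a pool of 30 whole animals. The groups read here are source-series controls and source oil at 24 and 72 hpf, slick-series controls at 24 and 48 hpf, source-series controls at 48 hpf, and slick oil at 24, 48 and 72 hpf, with 3 libraries each except for 2 slick-series controls at 24 hpf. Not analysed here were the groups of source oil at 48 hpf and of control water in the slick series at 72 hpf. Columns placed under those headings carry the names of other libraries, slick-series controls of 48 hpf in the first case and source-series controls of 72 hpf in the second, and were used under those names. Slick oil at 72 hpf was therefore set against the source-series controls of that age. Whether the pools were drawn from different spawns or tanks is not labelled, and p-values measure only the spread between these pools, which may be technical.

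Libraries held 2532771 to 3280939 counts, and 4771973 to 5880716 in the source-oil table of 24 hpf. Levels are CPM, counts scaled to a common library size after TMM normalization. They were computed separately for the 6 libraries of the source-oil table of 24 hpf, where counts fall on symbols differently, and for the 23 others. They were compared neither between these sets nor, for want of transcript lengths, between genes. In whole animals, fewer dividing cells and less RNA per dividing cell cannot be told apart. A call is an adjusted p under 0.05 from edgeR's quasi-likelihood test over all genes tested.

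BUB1B and TPX2 were listed at 0 in every library. CDT1, RPA2 and LIG1 were at 0 in the 23 libraries of the other 5 tables, where CENPE had 15 counts in all, and TYMS was at 0 in the 24 hpf source-oil table, where CDT1 had 29. LIG1 had 150 to 192 counts per library and RPA2 43 to 75 in the 24 hpf source-oil table, so a 0 elsewhere is no measure of the transcript. These members were not tested where they were at 0 or nearly so, and neither were others with few counts. At 72 hpf 17 members in source oil and 20 in slick oil did not pass the filter on low counts, none with over 15 counts in any library compared.

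In control water, the members fell with age. From 24 to 48 hpf, within the slick-series controls, 43 of 44 tested members fell and none rose (97.7% of the tested members), against 23.3% of all tested genes that fell and 23.7% that rose. The median log2 fold change of the members was -1.45, and over all genes tested it was -0.0062. The summed level of all members was 3364 and 3539 CPM in the 2 libraries at 24 hpf and 1112 to 1359 CPM in the 3 at 48 hpf. The exception was ORC1, the largest subunit of the origin recognition complex, with a log2 fold change of -0.85 (adjusted p = 0.126).

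All 5 roles held members that fell in this step. In licensing, MCM7, a subunit of the helicase ring, stood at 230.2 and 235 CPM at 24 hpf and 94.5, 75.6 and 85.8 CPM at 48 hpf. The groups did not overlap (log2 fold change -1.44, SE 0.093, adjusted p = 1.12e-13). Of this role 10 of 11 tested members fell, with a median of -1.34 on the log2 scale. The smallest adjusted p-values were those of MCM7, MCM6 and MCM5 (log2 fold changes -1.44, -1.43 and -1.42, adjusted p = 1.12e-13, 3.34e-11 and 2.93e-10). MCM2, another ring subunit, fell by 1.24 on the log2 scale.

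In DNA synthesis 11 of 11 fell, with a median of -1.29. PCNA, the sliding clamp, was at 99.5 and 93.2 CPM and then at 33.5, 32.3 and 34.3 CPM. The 3 smallest adjusted p-values of the role were those of PCNA, POLE and RPA1 (log2 fold changes -1.52, -1.44 and -1.29, adjusted p = 3.05e-12, 1.07e-11 and 3.81e-11). POLE is the catalytic subunit of polymerase epsilon and RPA1 a subunit of the protein that coats single-stranded DNA. FEN1, the nuclease that trims Okazaki fragments, had a log2 fold change of -1.99.

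Nucleotide synthesis fell in 4 of 4 members, with RRM2, RRM1 and TYMS (log2 fold changes -1.71, -1.25 and -1.35, adjusted p = 2.01e-16, 1.82e-13 and 7.39e-10) at the head. RRM2 was at 409 and 455 CPM at 24 hpf and at 141, 129.9 and 123 CPM at 48 hpf, with no overlap.

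The 5 tested cyclins and kinases all fell, led by CDK1, CCNB1 and CDK2 (log2 fold changes -1.45, -1.77 and -1.28, adjusted p = 3.76e-13, 3.23e-11 and 4.61e-07). CDK1, the kinase that drives entry into mitosis, went from 224 and 242 CPM to 94.5, 88.6 and 70.8 CPM.

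Mitosis had the lowest median of the 5 roles, at -1.67, and 13 of 13 tested members fell. The difference between roles was not tested. The smallest adjusted p-values were those of PLK1, AURKB and TOP2A (log2 fold changes -1.70, -1.67 and -1.49, adjusted p = 7.72e-15, 3.65e-14 and 4.91e-14). PLK1 and AURKB are mitotic kinases, and TOP2A is the topoisomerase that untangles sister chromatids. UBE2C, the E2 enzyme of the anaphase-promoting complex, and MKI67, the Ki-67 proliferation marker, had log2 fold changes of -1.63 and -1.53. The lowest value of any member was that of the spindle motor KIF11, a log2 fold change of -2.22 (SE 0.27). It stood at 18.5 and 18.1 CPM at 24 hpf and at 4.74, 2.75 and 4.02 CPM at 48 hpf.

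**Figure D1:**
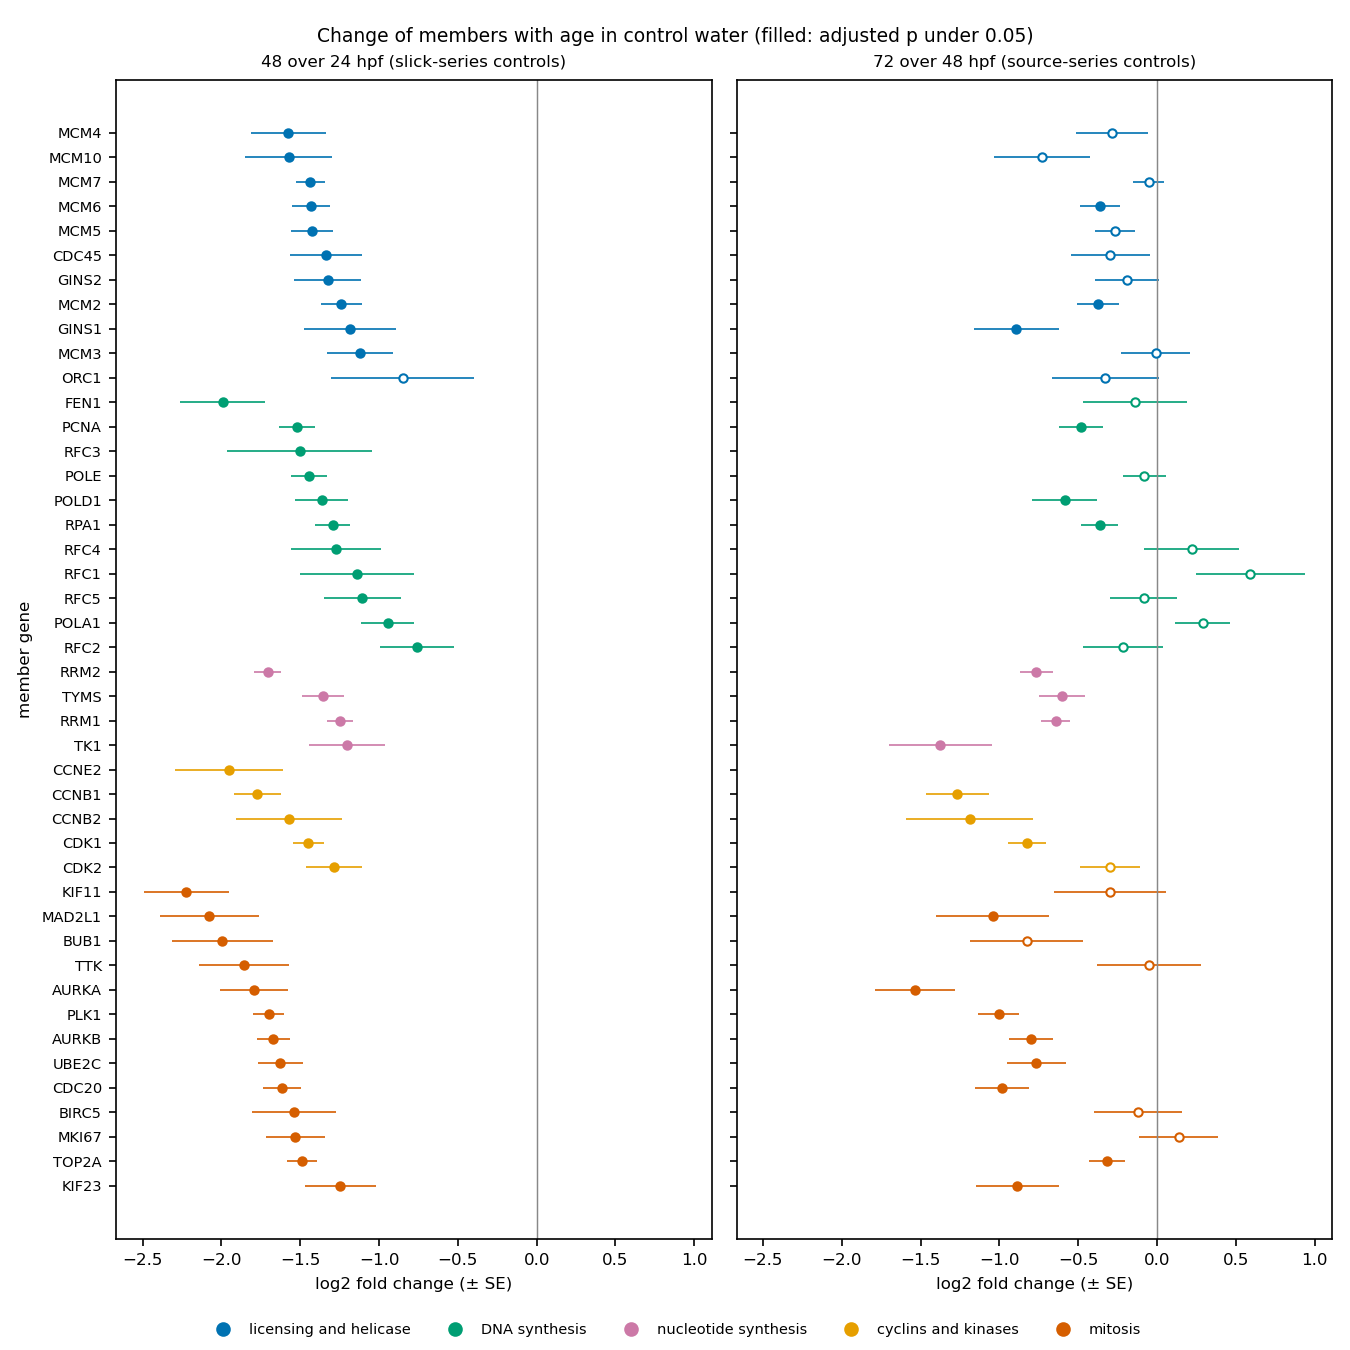
Each point is the log2 fold change of 1 member (± SE) with age in control water, coloured by role and filled where the adjusted p was under 0.05. The left panel is 24 to 48 hpf in slick-series controls and the right panel 48 to 72 hpf in source-series controls. On the left 43 of 44 points are filled and all lie below 0. On the right 21 of 42 are filled, and the median is -0.36.

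From 48 to 72 hpf, within the source-series controls, fewer members fell and the median change was smaller, at -0.36. Of 42 tested, 21 fell and none rose, against 13.6% of all tested genes that fell and 17.2% that rose. DESeq2 called 11 members here. Leaving out a single library left 13 to 19, with 13 without control 2 of 48 hpf or control 1 of 72 hpf. The share of all genes called in these alternative fits was not set beside the counts. The 2 steps were read in different control series, and the difference between the steps was not tested. At 48 hpf the members' median log2 fold change of source-series over slick-series controls was 0.34.

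Nucleotide synthesis fell in 4 of 4 members, led by RRM2, RRM1 and TK1 (log2 fold changes -0.77, -0.64 and -1.38, adjusted p = 4.9e-06, 1.67e-05 and 0.00263). TYMS, thymidylate synthase, had a log2 fold change of -0.60. TK1, the thymidine kinase that salvages thymidine, stood at 8.84, 11.3 and 5.71 CPM at 48 hpf and at 2.59, 3.89 and 3.56 CPM at 72 hpf.

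Mitosis fell in 8 of 13, with a median of -0.80, led by PLK1, AURKA and AURKB (log2 fold changes -1.005, -1.53 and -0.80, adjusted p = 2.64e-06, 6.89e-05 and 0.000109). UBE2C and TOP2A fell by 0.76 and 0.32 on the log2 scale, and the TOP2A call was lost in 4 of 6 fits with a library left out (-0.42 to -0.25). MKI67 did not pass, at a log2 fold change of 0.14 (adjusted p = 0.717). Its libraries overlapped, at 7.20, 9.47 and 8.40 CPM and then 7.77, 8.16 and 11.8 CPM.

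Of the cyclins and kinases 3 of 4 fell, which were CDK1, CCNB1 and CCNB2 (log2 fold changes -0.83, -1.27 and -1.19, adjusted p = 2.05e-05, 4.26e-05 and 0.0289). CCNB1 and CCNB2 are B-type cyclins. The CCNB2 call was lost in 4 of 6 fits with a library left out (log2 fold change -1.39 to -0.98).

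Of the replication genes fewer passed over the same day. In licensing 3 of 11 fell, which were GINS1, MCM2 and MCM6 (log2 fold changes -0.89, -0.37 and -0.36, adjusted p = 0.0154, 0.0331 and 0.0352), and the role median was -0.30. The calls of MCM2 (-0.40 to -0.35) and of MCM6 (-0.48 to -0.22) were each lost in 5 of 6 fits with a library left out. GINS1, a subunit of the GINS complex of the moving helicase, lost its call without source-series control 2 of 48 hpf or 2 of 72 hpf (log2 fold change -0.96 to -0.79 over the 6 fits). In DNA synthesis 3 of 10 fell, PCNA, RPA1 and POLD1 (log2 fold changes -0.48, -0.36 and -0.59, adjusted p = 0.0101, 0.0206 and 0.0348), with a median of -0.11. POLD1 is the catalytic subunit of polymerase delta. The calls of POLD1 (-0.70 to -0.36) and RPA1 (-0.48 to -0.30) were lost in 4 of 6 fits with a library left out, and that of PCNA (-0.56 to -0.36) without control 2 of 48 hpf or control 1 of 72 hpf. MCM7, which fell a day earlier, was at 108, 105 and 96.4 CPM and then at 96.2, 107 and 97.0 CPM (log2 fold change -0.053, SE 0.10, adjusted p = 0.723), and the groups overlapped.

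In slick oil the same ages gave the same direction. From 24 to 48 hpf 41 of 43 tested members fell (median -1.14), against 18.5% of all genes that fell and 19.7% that rose. From 48 to 72 hpf 27 of 41 fell (median -0.94), against 19.6% and 21.6%. No member rose in either step.

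Between 24 and 48 hpf PCNA, MCM2, MCM6 and RRM2 had log2 fold changes of -1.08, -1.24, -0.95 and -1.21. CDK1, UBE2C, AURKB, TOP2A and MKI67 had -1.05, -1.23, -1.23, -1.30 and -1.13, all 9 called. The smallest adjusted p-values in licensing were those of MCM2, MCM7 and MCM6 (log2 fold changes -1.24, -1.08 and -0.95, adjusted p = 1.57e-06, 1.58e-06 and 3.01e-05). In DNA synthesis they were those of RPA1, POLE and POLA1 (log2 fold changes -0.99, -1.22 and -1.14, adjusted p = 3.04e-06, 3.59e-06 and 2.1e-05). Nucleotide synthesis was led by RRM2, RRM1 and TYMS (log2 fold changes -1.21, -0.80 and -1.08, adjusted p = 3.82e-08, 6.1e-06 and 6.89e-05). Among the cyclins and kinases the first were CDK1, CCNB1 and CDK2 (log2 fold changes -1.05, -1.25 and -0.78, adjusted p = 1.68e-06, 2.23e-05 and 0.00192). In mitosis they were TOP2A, PLK1 and AURKB (log2 fold changes -1.30, -1.23 and -1.23, adjusted p = 4.87e-08, 2.98e-07 and 1.46e-06).

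From 48 to 72 hpf in slick oil, 12 of 13 tested mitosis members fell, with a median of -1.80, led by PLK1, AURKB and TOP2A (log2 fold changes -1.93, -2.09 and -1.18, adjusted p = 1.51e-08, 6.43e-08 and 1.09e-07). UBE2C and MKI67 fell by 1.67 and 1.99 on the log2 scale. Of 3 tested cyclins and kinases 2 fell, CDK1 and CCNB1 (log2 fold changes -2.02 and -2.32, adjusted p = 3.02e-09 and 1.68e-07). All 4 nucleotide synthesis members fell, led by RRM2, RRM1 and TYMS (log2 fold changes -1.41, -1.23 and -1.36, adjusted p = 7.41e-09, 5.22e-08 and 2.44e-05).

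Of DNA synthesis 6 of 10 fell, led by RPA1, PCNA and POLA1 (log2 fold changes -0.94, -1.03 and -0.71, adjusted p = 1.98e-05, 9.05e-05 and 0.00686). Of licensing 3 of 11 fell, MCM5, GINS1 and MCM6 (log2 fold changes -0.65, -1.39 and -0.45, adjusted p = 0.00151, 0.00247 and 0.0297). MCM2 did not pass, at a log2 fold change of -0.27 (adjusted p = 0.212). The MCM6 call was lost in 4 of 6 fits with a library left out (log2 fold change -0.61 to -0.26). The interval from 48 to 72 hpf was not tested for a difference between slick oil and control water. Slick-series controls at 72 hpf were not among the groups read.

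Genes listed as markers of neural progenitors were lower at the later ages too. Their summed level over 20 listed genes was 11530 to 11780 CPM in slick-series controls at 24 hpf and 3059 to 3398 CPM at 48 hpf. Most of this sum at 24 hpf was NOTCH1, NOTCH3 and DLL1, with means of 4452, 3383 and 1498 CPM. At 48 hpf their means were 1203, 608 and 158 CPM. In source-series controls the sum was 2729 to 2896 CPM at 48 hpf and 2485 to 2670 CPM at 72 hpf. In slick oil it was 10500 to 11500, 3039 to 3538 and 2414 to 2493 CPM at the 3 ages. NES, HES5 and NEUROG1, defining markers among them, were at 0 in these tables. All 3 had reads in the 24 hpf source-oil table, so a 0 here is no measure of the transcript. Of 15 tested, 13 fell from 24 to 48 hpf and 7 from 48 to 72 hpf in control water. The shares of all genes that fell were 23.3% and 13.6%. In slick oil 12 fell in each step, against 18.5% and 19.6% of all genes. The list's leading changes from 24 to 48 hpf in control water were those of DLL1, NOTCH3 and NOTCH1 (log2 fold changes -3.23, -2.47 and -1.88), all receptors or ligands of Notch signalling. From 48 to 72 hpf they included PAX6 and MSI1 (log2 fold changes -0.46 and -0.44). In slick oil they were NOTCH3, DLL1 and NOTCH1 (log2 fold changes -2.28, -2.77 and -1.96) in the first step. In the second they included PAX6 and SOX11 (log2 fold changes -0.88 and -0.83). Which cells of the whole animals the reads of these genes came from is not known. The part of neural progenitors in the members' decline was not tested. Germ line genes, 12 listed, summed to at most 2.94 CPM in any library, and DDX4, NANOS1, NANOS3, DND1 and ZP2 were at 0 in the 23 libraries. DDX4 and NANOS3 had reads in the 24 hpf source-oil table, so the same limit holds for them.

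**Figure D2:**
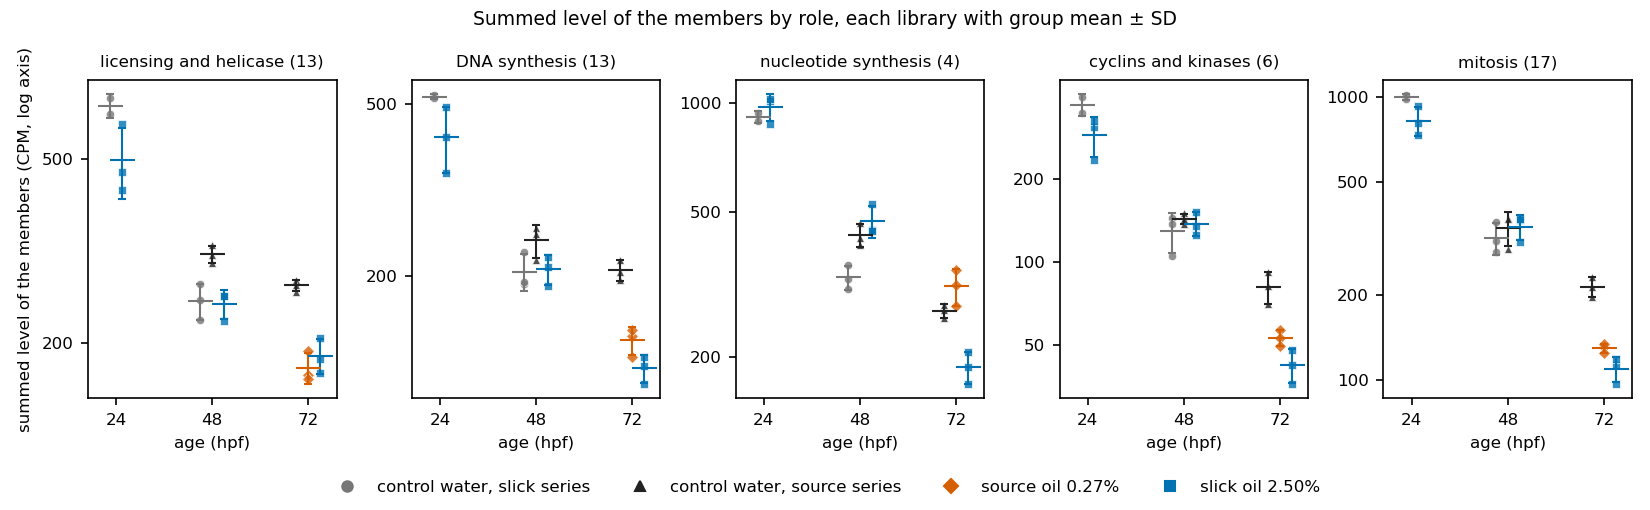
Each panel gives the summed level (CPM, log axis) of the members of 1 role in each library by age, with the group mean ± SD. Libraries of the 24 hpf source-oil table are not drawn. The sum of the mitosis members is 979 and 1012 CPM in slick-series controls at 24 hpf and 196 to 232 CPM in source-series controls at 72 hpf. At 72 hpf source oil is at 124 to 134 CPM and slick oil at 97.1 to 119 CPM.

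Other genes of the same processes, listed by function, were counted beside the share of all genes in the same comparison. From 24 to 48 hpf that share was 23.3% lower and 23.7% higher. In control water 24 of 27 tested further replication genes fell and none rose, led by UHRF1, ASF1B and DNMT1 (log2 fold changes -1.07, -1.39 and -0.98), which copy DNA methylation or deliver histones behind the fork. All 36 tested genes of the further mitosis list fell, led by CDCA7, NCAPD2 and BUB3 (log2 fold changes -1.63, -1.73 and -1.17). CDCA7 is counted in that list, although its role is not in mitosis itself. Of 20 further genes of nucleotide synthesis 12 fell and 4 rose, led by SHMT1, DUT and CAD (log2 fold changes -0.98, -1.21 and -1.20). Of 25 genes of cell cycle entry and restraint 17 fell and 1 rose, led by MYBL1, TFDP1 and WEE1 (log2 fold changes -1.82, -1.47 and -1.64).

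From 48 to 72 hpf 13.6% of all genes were lower and 17.2% higher, and the shares of the replication and the entry and restraint lists were near or below that background. Of replication genes 3 of 19 fell and 1 rose, led by ASF1B, ORC2 and CHAF1B (log2 fold changes -0.49, 0.93 and -0.67). Of 30 genes of the mitosis list 8 fell, led by UBE2S, CKS1B and CDCA7 (log2 fold changes -0.76, -0.80 and -0.55). Of 22 entry and restraint genes 1 fell and 3 rose, led by MYBL2, MYCN and CCNG1 (log2 fold changes -0.53, 0.42 and 0.34). Among nucleotide synthesis genes outside the 4 members, 2 of 19 fell and 8 rose, led by SHMT2, IMPDH2 and MTHFD1 (log2 fold changes 1.24, 1.23 and 1.205), which serve folate one-carbon metabolism or purine synthesis.

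In slick oil the shares of all genes were 18.5% lower and 19.7% higher from 24 to 48 hpf, and 19.6% and 21.6% from 48 to 72 hpf. Of replication genes 18 of 26 fell in the first step, led by UHRF1, ASF1B and CHAF1B (log2 fold changes -0.93, -1.02 and -1.46). In the second 9 of 18 fell, led by DNMT1, ASF1B and PRIM2 (log2 fold changes -0.74, -0.85 and -0.92). Further mitosis genes fell in 31 of 34 in the first step, led by NCAPD2, CDC25B and KIF4A (log2 fold changes -1.29, -1.78 and -1.54), and in 25 of 28 in the second, led by NCAPD2, CKS1B and BUB3 (log2 fold changes -1.68, -1.58 and -0.83). For nucleotide synthesis 7 of 19 fell and 1 rose in the first step, led by CAD, SHMT1 and DUT (log2 fold changes -1.49, -0.70 and -0.79). In the second 5 of 17 fell and 7 rose, led by IMPDH2, SHMT2 and MTHFD1 (log2 fold changes 1.14, 1.14 and 1.06). Of entry and restraint genes 14 of 25 fell in the first step, led by MYBL1, WEE1 and TFDP1 (log2 fold changes -1.53, -1.31 and -0.84). In the second 3 of 22 fell, a share below that of all genes. They were E2F4, MYBL2 and LIN9 (log2 fold changes -1.36, -0.62 and -0.58).

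In source oil at 24 hpf RRM2 rose and few members passed the test. Of 49 tested members 1 rose and 1 fell, against 3.98% of all tested genes that rose and 1.44% that fell. The members' median log2 fold change was -0.066. RRM2, the small subunit of ribonucleotide reductase, was at 410.4, 519 and 539.8 CPM in control libraries and at 899, 952 and 917 CPM in source oil. All 3 oil libraries lay above the controls, and the change was 1.88-fold (log2 fold change 0.91, SE 0.087, adjusted p = 1.76e-07). The call held in 6 of 6 fits with a library left out. Its partner RRM1 was at 416, 448 and 495 CPM and 429, 447 and 449 CPM, with overlapping groups (log2 fold change -0.036, SE 0.075, adjusted p = 0.869).

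TK1 was the member that fell, from 14.0, 18.9 and 22.3 CPM to 11.9, 11.9 and 12.8 CPM (log2 fold change -0.59, SE 0.17, adjusted p = 0.0423). Its groups did not overlap. The call was lost in 5 of 6 fits with a library left out (log2 fold change -0.76 to -0.43) and DESeq2 did not make it. Of the other genes followed throughout none passed. The log2 fold change was -0.024 for MCM2, 0.056 for MCM6, -0.17 for PCNA and -0.083 for CDK1. It was -0.23 for UBE2C, -0.028 for AURKB, -0.0066 for TOP2A and -0.057 for MKI67.

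In slick oil at 24 hpf RRM2 was higher as well, and 2 licensing genes were lower. Of 45 tested members 1 rose and 2 fell, against 1.62% of all genes that rose and 0.569% that fell. The fold change was below 0 for 41 of 45 members (91.1%), with a median of -0.31, and below 0 for 49.9% of all genes tested.

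RRM2 was at 409 and 455 CPM in the 2 control libraries and at 615, 524 and 570.1 CPM in slick oil, with no overlap (log2 fold change 0.42, SE 0.081, adjusted p = 0.0026). Its call was lost without slick-series control 2 or slick oil 1 (log2 fold change 0.35 to 0.49). MCM6 was at 116 and 129.7 CPM in controls and at 84.5, 72.7 and 105 CPM in oil (log2 fold change -0.46, SE 0.12, adjusted p = 0.0359). GINS2, another GINS subunit, was at 29.2 and 23.2 and 12.1, 18.9 and 14.3 CPM (log2 fold change -0.78, SE 0.20, adjusted p = 0.0353). The oil libraries of both genes lay below the controls. By unadjusted p under 0.05 there were 20 members (44.4%), against 11.9% of all genes.

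The count at this age depended on single libraries. Slick oil library 3 was the nearest to the controls, with a summed level of all members of 3366 CPM against 3016 and 2617 CPM in libraries 1 and 2 and 3364 and 3539 CPM in controls. Without it 18 members were called. Without slick-series control 2 or slick oil 1 none was, and without slick-series control 3 only 1 was. These counts were not set against the share of all genes called in the same fits. The MCM6 call was lost in 4 of 5 such fits (log2 fold change -0.62 to -0.35) and the GINS2 call in 3 of 5 (-0.96 to -0.60).

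No other gene followed throughout passed at this age. PCNA was at 99.5 and 93.2 CPM in controls and 67.9, 53.2 and 82.7 CPM in oil (log2 fold change -0.48, SE 0.13, adjusted p = 0.0559), with no overlap. MCM2 had a log2 fold change of -0.29, CDK1 of -0.33, UBE2C of -0.26, AURKB of -0.28, TOP2A of -0.14 and MKI67 of -0.24.

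In slick oil at 48 hpf RRM2 was the single member called. Of 42 tested 1 rose and none fell, against 1.92% of all genes that rose and 0.759% that fell. RRM2 stood at 141, 129.9 and 123 CPM in controls and at 224, 279 and 235 CPM in oil, 1.89-fold higher with no overlap (log2 fold change 0.92, SE 0.10, adjusted p = 4.28e-05). The call held in 6 of 6 fits with a library left out.

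The median log2 fold change of the members was 0.087, and 11 of 42 were below 0 (26.2%), against 50.7% of all genes tested. On this scale MCM2 was at -0.29 (adjusted p = 0.286), MCM6 at 0.015 (adjusted p = 0.979), PCNA at -0.046 (adjusted p = 0.911) and RRM1 at 0.23 (adjusted p = 0.215). The mitotic genes CDK1, UBE2C, AURKB, TOP2A and MKI67 had log2 fold changes of 0.070, 0.13, 0.16, 0.047 and 0.16, none called. MAD2L1, a spindle checkpoint protein, had the largest value of the members, 1.002 (adjusted p = 0.114), and was not called either.

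Whether the effect of slick oil differed between 24 and 48 hpf was tested as an interaction. No member was called, out of 45 tested, nor any of the 9498 genes (0% higher and 0% lower) by edgeR's quasi-likelihood test. In simulated data this test called 59.2% of genes with a true log2 difference of 1, and smaller differences were not simulated. A missing call is therefore no evidence that the ages were alike. DESeq2 called no member, and without slick oil library 1 of 48 hpf edgeR called 1. The interaction was above 0 for 43 of 45 members and below 0 for 4.44%, with a median of 0.43 on the log2 scale. Over all genes tested it was below 0 for 46.3%, with a median of 0.025. By edgeR 14 of 45 (31.1%) had an unadjusted p under 0.05, against 11.3% of all genes. The values were 0.52 (adjusted p = 0.23) for RRM2, 0.51 (adjusted p = 0.387) for MCM6, 0.46 (adjusted p = 0.427) for PCNA and 0.43 (adjusted p = 0.366) for CDK1. For UBE2C, AURKB, TOP2A, MKI67 and MCM2 they were 0.42, 0.47, 0.22, 0.43 and 0.026.

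At 72 hpf many members were lower in both oils. In source oil 18 of 36 tested members fell (50% of them) and 1 rose, against 9.04% of all tested genes that fell and 11.4% that rose. In slick oil 22 of 33 fell (66.7%) and none rose, against 10.1% and 8.55%. The median log2 fold change was -0.66 in source oil and -0.76 in slick oil. Both comparisons used the same 3 source-series controls, so they are not independent of each other. At 48 hpf the members' median log2 fold change of source-series over slick-series controls was 0.34. A difference of this kind cannot be told apart from slick oil at 72 hpf.

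The summed level of all members was 987 to 1087 CPM in these controls, 747 to 854 CPM in source oil and 587 to 702 CPM in slick oil, with no overlap between control and oil. The 17 and 20 of 53 members that were not tested, 5 of them at 0 in every one of these libraries, are not among these counts.

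In licensing and the helicase, 6 of 10 tested members fell in source oil, led by MCM6, MCM5 and MCM7 (log2 fold changes -0.77, -0.63 and -0.43, adjusted p = 0.000223, 0.00423 and 0.00606). In slick oil 6 of 8 were lower, led by MCM5, MCM7 and CDC45 (log2 fold changes -0.65, -0.39 and -1.07, adjusted p = 0.00187, 0.00519 and 0.0109). The MCM7 call in slick oil was lost without slick oil library 1. MCM6 was at 43.3, 47.0 and 45.6 CPM in control libraries, at 30.2, 26.6 and 22.0 CPM in source oil and at 35.6, 40.4 and 23.7 CPM in slick oil. Neither oil overlapped the controls. Its log2 fold change was -0.77 (adjusted p = 0.000223) in source oil and -0.43 (adjusted p = 0.0385) in slick oil, where the call was lost in 5 of 6 fits with a library left out (-0.59 to -0.24).

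CDC45, which joins MCM and GINS in the active helicase, was at 9.99, 10.5 and 6.77 CPM in controls, 3.67, 4.12 and 4.17 CPM in source oil and 3.24, 4.33 and 5.11 CPM in slick oil. All 6 oil libraries lay below the controls (log2 fold change -1.15, SE 0.31, adjusted p = 0.00748 in source oil). Without slick oil library 1 the call in slick oil was lost (-1.26 to -0.92 over the 6 fits). MCM2 was called in source oil, at a log2 fold change of -0.71 (adjusted p = 0.00777), and not without source oil library 2 (-0.93 to -0.47). In slick oil it was at -0.42 (adjusted p = 0.0694). MCM3, called in both at -0.74 and -0.74, lost its call in 4 of 6 fits of each with a library left out.

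In DNA synthesis 3 of 10 tested members fell in source oil, RPA1, POLA1 and POLE (log2 fold changes -0.58, -0.80 and -0.55, adjusted p = 0.000732, 0.00426 and 0.0107). In slick oil 5 of 10 fell, led by RPA1, PCNA and POLA1 (log2 fold changes -0.79, -0.95 and -1.0, adjusted p = 1.06e-05, 7.88e-05 and 0.00044). POLA1, the catalytic subunit of the polymerase that starts each new strand, was at 18.1, 22.2 and 19.2 CPM in controls, 10.2, 12.4 and 10.99 CPM in source oil and 11.5, 8.66 and 9.13 CPM in slick oil. Neither oil overlapped the controls. POLE fell in both oils, in source oil not without source-series control 1 (-0.62 to -0.44).

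PCNA was at 25.9, 32.7 and 33.5 CPM in controls, 24.9, 29.2 and 20.8 CPM in source oil and 16.9, 15.2 and 14.97 CPM in slick oil. The source-oil libraries overlapped the controls (log2 fold change -0.28, SE 0.16, adjusted p = 0.251) and the slick-oil libraries were all lower (log2 fold change -0.95, SE 0.17, adjusted p = 7.88e-05). RFC5, a subunit of the clamp loader, was called in slick oil at a log2 fold change of -1.01 (adjusted p = 0.00596) and not without slick oil library 2. In source oil it was at -0.71 (adjusted p = 0.0555).

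Nucleotide synthesis members differed in direction at 72 hpf. TYMS fell in both oils, from 24.4, 22.5 and 25.0 CPM in controls to 14.7, 12.4 and 14.4 CPM in source oil (log2 fold change -0.78, SE 0.18, adjusted p = 0.00233) and 6.84, 11.6 and 9.86 CPM in slick oil (log2 fold change -1.33, SE 0.20, adjusted p = 7.01e-06). RRM2 stood at 97.3, 111 and 114 CPM in controls and rose in source oil to 172, 200.4 and 141 CPM (log2 fold change 0.69, SE 0.11, adjusted p = 5.74e-05). All 3 source-oil libraries lay above the controls, and the call held in 6 of 6 fits with a library left out.

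In slick oil RRM2 was at 97.8, 96.4 and 84.3 CPM, overlapping the controls (log2 fold change -0.19, SE 0.10, adjusted p = 0.183). RRM1 was at 131, 131 and 136 CPM in controls, 125, 129.6 and 118 CPM in source oil (log2 fold change -0.078, SE 0.10, adjusted p = 0.638) and 80.9, 94.9 and 73.7 CPM in slick oil (log2 fold change -0.66, SE 0.10, adjusted p = 5.88e-06). It fell in slick oil, with each library below all controls.

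Of 3 tested cyclins and kinases CDK1 and CCNB1 were called in each oil. CDK1 was at 55.1, 38.5 and 53.1 CPM in controls, 31.8, 33.3 and 27.3 CPM in source oil (log2 fold change -0.65, SE 0.15, adjusted p = 0.00195) and 23.7, 24.5 and 17.2 CPM in slick oil (log2 fold change -1.15, SE 0.16, adjusted p = 1.53e-06). All oil libraries were below the controls. CCNB1 fell by 0.84 on the log2 scale in source oil and by 1.19 in slick oil, and its call in source oil was lost in 4 of 6 fits with a library left out (-1.04 to -0.62).

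Mitosis members fell in 6 of 10 tested in source oil, led by UBE2C, AURKB and PLK1 (log2 fold changes -1.25, -0.78 and -0.67, adjusted p = 0.00055, 0.000779 and 0.00166). In slick oil 7 of 9 fell, led by AURKB, TOP2A and PLK1 (log2 fold changes -1.26, -0.74 and -0.92, adjusted p = 2.02e-06, 1.57e-05 and 5.3e-05). UBE2C was at 13.3, 14.4 and 18.9 CPM in controls, 4.89, 7.12 and 7.20 CPM in source oil and 7.55, 6.498 and 5.84 CPM in slick oil (log2 fold change -1.21, SE 0.24, adjusted p = 0.000305). AURKB was at 32.6, 28.8 and 37.8 CPM, 20.0, 18.7 and 18.6 CPM and 12.6, 16.6 and 11.7 CPM in the same order. PLK1, CDC20 (the activator of the anaphase-promoting complex) and BIRC5 (survivin) were likewise called in both.

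No oil library reached the lowest control for UBE2C or AURKB. In source oil the BIRC5 call was lost in 5 of 6 fits with a library left out (-1.33 to -0.91) and the CDC20 call in 3 (-0.83 to -0.55). In slick oil BIRC5 lost it without slick oil library 2. MKI67 was at 7.77, 8.16 and 11.8 CPM in controls, 8.15, 6.37 and 2.27 CPM in source oil and 3.24, 3.61 and 2.19 CPM in slick oil. It was called in slick oil (log2 fold change -1.59, SE 0.32, adjusted p = 0.000476), where the groups did not overlap, and not in source oil (log2 fold change -0.72, SE 0.33, adjusted p = 0.128), where they did.

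**Figure D3:**
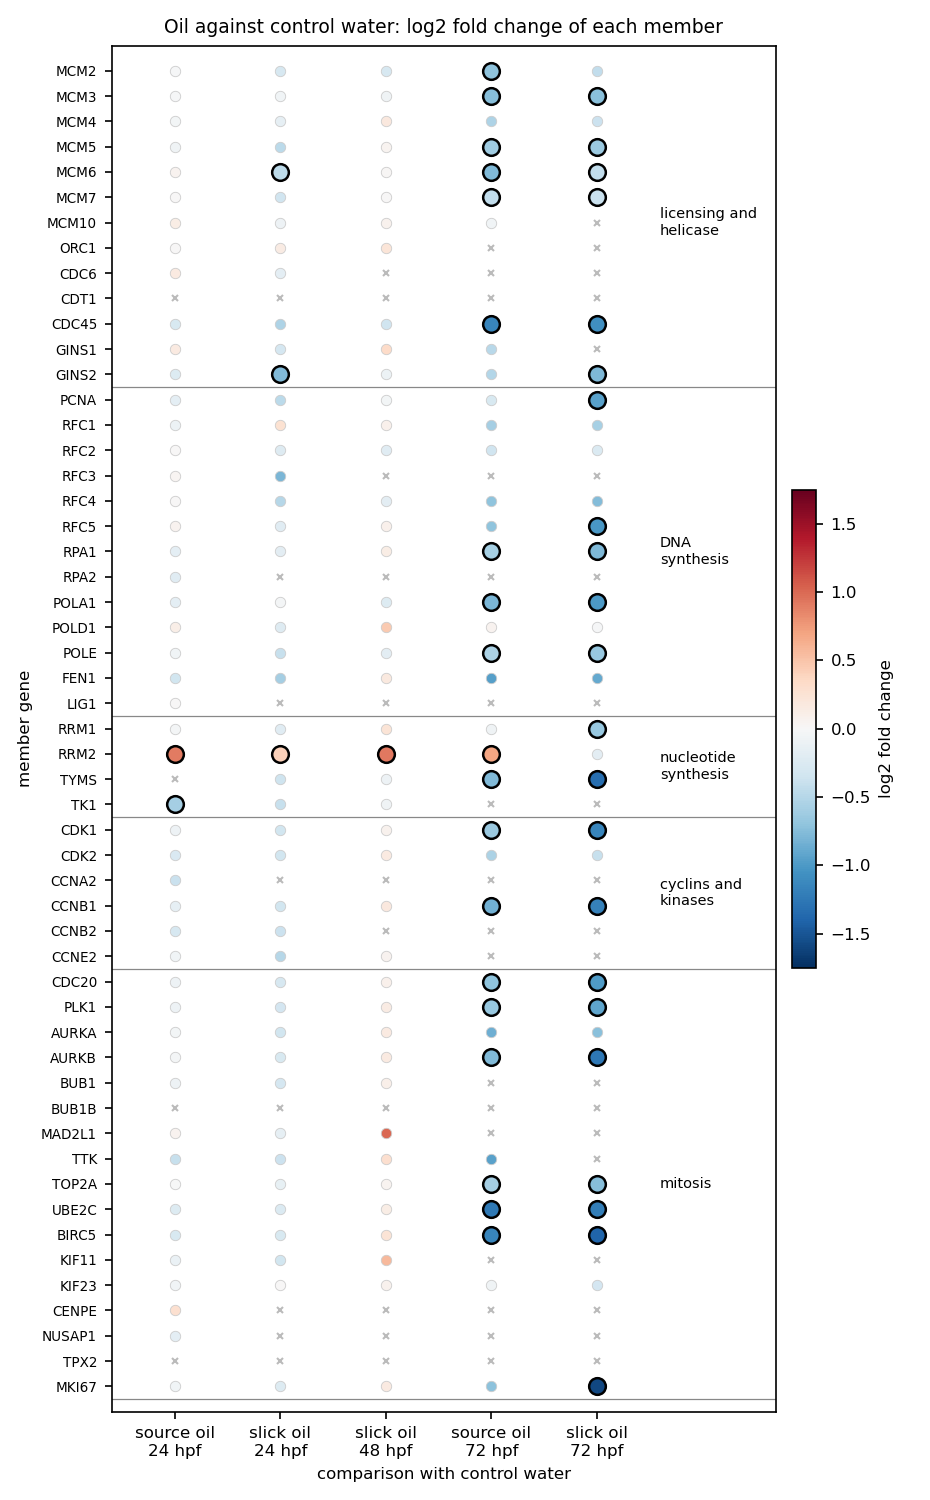
Each circle gives the log2 fold change of 1 member (rows, by role) in 1 of 5 oil comparisons (columns), blue for lower and red for higher in oil, large with a black outline where the adjusted p was under 0.05 and a grey cross where the member was not tested. RRM2 is the single row called higher, in 4 of 5 columns. The columns at 72 hpf hold 18 and 22 members called lower.

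The 17 members lower in both oils at 72 hpf were MCM3, MCM5, MCM6, MCM7 and CDC45 in licensing, RPA1, POLA1 and POLE in DNA synthesis, TYMS in nucleotide synthesis, CDK1 and CCNB1, and CDC20, PLK1, AURKB, TOP2A, UBE2C and BIRC5 in mitosis. Their number was not set against the share of all genes called lower in both oils, and both comparisons used the same controls. TOP2A had a log2 fold change of -0.59 (adjusted p = 0.00174) in source oil. MCM6 was also called lower in slick oil at 24 hpf, as was GINS2. GINS2 was lower at 72 hpf in slick oil (log2 fold change -0.79, SE 0.24, adjusted p = 0.0179), a call lost in 3 of 6 fits with a library left out (-0.95 to -0.71). MCM2 was lower in source oil alone, and PCNA, RFC5, RRM1 and MKI67 in slick oil alone, as calls that were not tests of a difference. At 24 hpf the authors' deposited table of slick oil has none of the 3 members called here, with adjusted p-values of 0.918 for RRM2 and 0.9996 for MCM6 and GINS2, and a 48 hpf library stands among its controls. The authors' deposited table of source oil at that age has RRM2 higher and TK1 not called (adjusted p = 0.317). By the authors' deposited table, 13 members were lower and 1 higher in source oil at 72 hpf. In the authors' deposited table of slick oil 14 were lower, and all 28 of these were called in the same direction here. Those fits used the same counts, so this is no separate check, and their share of all genes called was not set beside it. Called lower here and not there were MCM3, POLE, CCNB1, CDC20 and BIRC5 in source oil. In slick oil they were MCM3, MCM6, CDC45, GINS2, RFC5, CCNB1, BIRC5 and MKI67.

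The controls of the 2 series were compared at 48 hpf. The source-series controls had 1 member called higher, RRM2 (log2 fold change 0.47, SE 0.095, adjusted p = 0.00785), and none lower of 42 tested, against 2.41% of all genes higher and 2.04% lower. The members' median was 0.34, and 5 of 42 were below 0 (11.9%), against 48.5% of all genes tested. RRM2 stood at 166, 199 and 179 CPM there and at 141, 129.9 and 123 CPM in the slick-series controls. The groups did not overlap, and the call was lost without source-series control 2 or slick-series control 2 or 3 (0.40 to 0.54). Without source-series control 1 there were 6 members called and without slick-series control 1 there were 5. The share of all genes called in those 2 fits was not set beside these counts. MCM2, MCM6 and PCNA were at 0.25, 0.37 and 0.36, and CDK1, UBE2C, AURKB, TOP2A and MKI67 at 0.036, 0.44, 0.14, -0.057 and -0.37 on the log2 scale, none called.

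A difference of this kind cannot be told apart from slick oil at 72 hpf, where the controls are those of the source series. The trailing numbers in the headers of the slick-oil columns start over from those of the other columns, while the leading numbers run on. Whether the trailing numbers mark another sequencing run is not given, and this cannot be told apart from the oil.

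Slick oil and source oil at 72 hpf were also compared with each other directly. The oils belong to different series and had unequal labelled concentrations, 2.50% and 0.27%, which cannot be told apart from the oil. Of 29 tested members 4 were lower in slick oil and none higher, against 9.85% of all genes lower and 7.61% higher. The share of members, 13.8%, was near that background. The 4 were RRM2 (log2 fold change -0.87, SE 0.11, adjusted p = 8.4e-07) and RRM1 (log2 fold change -0.56, SE 0.10, adjusted p = 0.000194), PCNA (log2 fold change -0.66, SE 0.17, adjusted p = 0.00802) and CDK1 (log2 fold change -0.48, SE 0.16, adjusted p = 0.035). The calls of RRM2 and RRM1 held in 6 of 6 fits with a library left out. PCNA lost its call without source oil library 2, and CDK1 without source oil library 1 or 2 or slick oil library 3. MCM2, MCM6, UBE2C, AURKB, TOP2A and MKI67 had log2 differences of 0.30, 0.36, 0.058, -0.47, -0.14 and -0.85, none called.

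**Figure D4:**
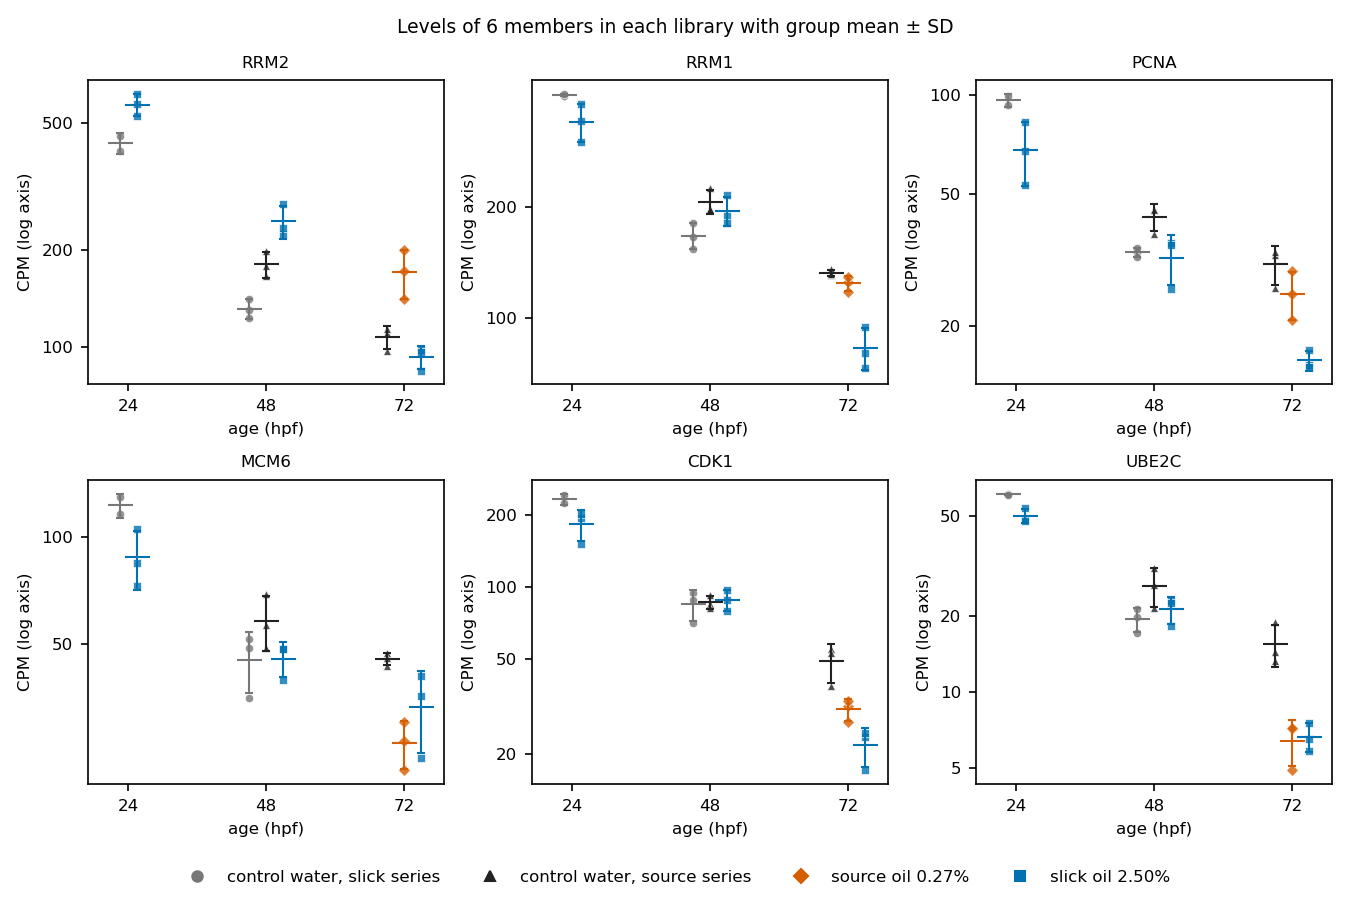
Levels (CPM, log axis) of RRM2, RRM1, PCNA, MCM6, CDK1 and UBE2C in each library by age, with group mean ± SD. Libraries of the 24 hpf source-oil table are not drawn. RRM2 in oil is above its controls at 24 and 48 hpf and, in source oil, at 72 hpf. At 72 hpf the other 5 genes have lower means in both oils than in controls, and the source-oil libraries of PCNA overlap the controls.

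RRM2 and RRM1 form 1 enzyme, and their reads were set side by side in each library, a ratio chosen after the values were seen and given without a test. There were 0.987, 1.16 and 1.09 RRM2 reads per RRM1 read in source-series controls at 24 hpf and 2.10, 2.13 and 2.04 in source oil. Slick-series controls at 24 hpf had 1.03 and 1.13 and slick oil 1.81, 1.76 and 1.51. At 48 hpf the ratio was 0.781, 0.784 and 0.796 in slick-series controls, 0.842, 0.889 and 0.905 in source-series controls and 1.19, 1.30 and 1.31 in slick oil.

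At 72 hpf it was 0.743, 0.843 and 0.837 in source-series controls, 1.38, 1.55 and 1.19 in source oil and 1.21, 1.02 and 1.14 in slick oil. In each of the 5 comparisons every oil library was above every control library. In slick oil at 72 hpf this came with a lower RRM1, and not a higher RRM2, than in the source-series controls. At 48 hpf RRM2 was at 166, 199 and 179 CPM in source-series controls and 141, 129.9 and 123 CPM in slick-series controls. RRM1 was at 197, 224 and 198 CPM and 181, 166 and 154 CPM in the same order. Such a difference between series cannot be told apart from slick oil at 72 hpf. The ratio is one of reads, not of molecules, and is compared between libraries only.

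**Figure D5:**
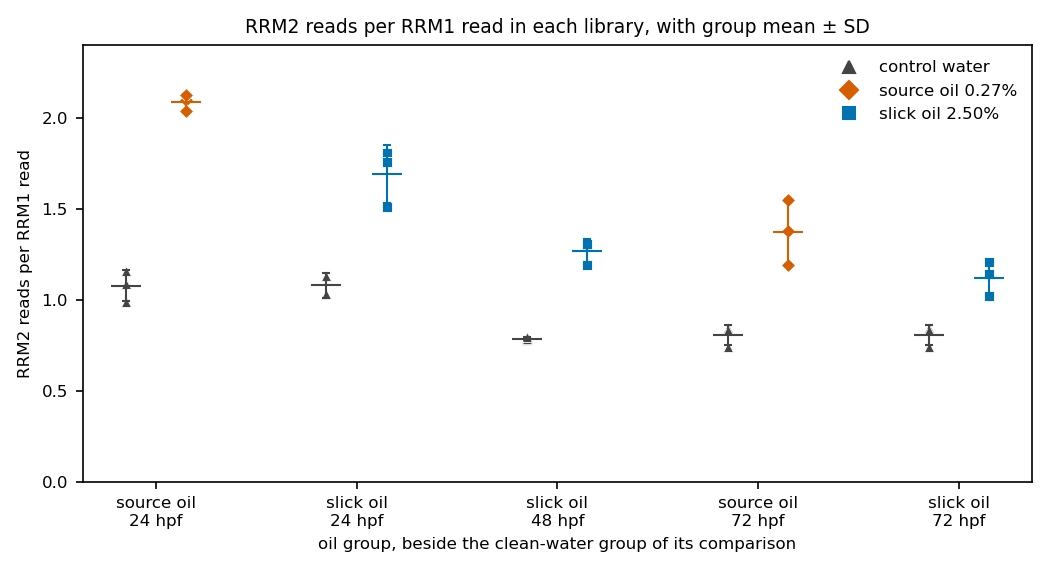
RRM2 reads per RRM1 read in each library of the 5 oil comparisons, with group mean ± SD. The 3 controls at 72 hpf are drawn beside both oils. Oil libraries lie above the controls of their comparison throughout, from 2.04 to 2.13 against 0.987 to 1.16 in source oil at 24 hpf, and from 1.02 to 1.21 against 0.743 to 0.843 in slick oil at 72 hpf.

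RRM2B, an alternative small subunit of ribonucleotide reductase that responds to p53 in mammals, belongs to the list of further nucleotide synthesis genes and was read beside RRM2. It rose in source oil at 24 hpf (log2 fold change 0.62, SE 0.13, adjusted p = 0.00386) and at 72 hpf (log2 fold change 0.86, SE 0.20, adjusted p = 0.00219) and in slick oil at 48 hpf (log2 fold change 0.70, SE 0.14, adjusted p = 0.0131). In slick oil at 24 hpf it was at 0.71 (adjusted p = 0.0539) and at 72 hpf at 0.22 (adjusted p = 0.469), without a call. Its value at 72 hpf in source oil and the uncalled values were chosen after they were seen. RRM2 and RRM2B are related in sequence, and whether fish reads of one were assigned to the other was not tested.

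Further genes of the same processes were counted at 72 hpf, where all genes also had more calls than at the earlier ages, 9.04% lower and 11.4% higher in source oil and 10.1% and 8.55% in slick oil. Of replication genes outside the 53, 6 of 18 tested fell in source oil, led by UHRF1, WDHD1 and PRIM1 (log2 fold changes -0.54, -1.18 and -1.03). In slick oil 7 of 18 fell, led by DNMT1, PRIM2 and UHRF1 (log2 fold changes -0.68, -1.003 and -0.43). DNMT1, the maintenance DNA methyltransferase, was the single one called at 24 hpf, in slick oil (log2 fold change -0.36, SE 0.092, adjusted p = 0.0343). There 28 were tested, and 0.569% of all genes fell. Of the further mitosis list 5 of 24 tested genes fell in source oil at 72 hpf, led by CDCA7, KIF4A and BUB3 (log2 fold changes -0.95, -1.12 and -0.40). In slick oil 11 of 23 fell, led by NCAPD2, BUB3 and CKS1B (log2 fold changes -1.19, -0.59 and -1.10). None was called at 24 or 48 hpf in oil.

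Of 21 tested genes of cell cycle entry and restraint, 3 rose in source oil at 72 hpf, near the 11.4% of all genes. They were BTG1, CCNG1 and PKMYT1 (log2 fold changes 1.06, 0.34 and 1.06). BTG1 is an antiproliferative factor, CCNG1 a p53 target and PKMYT1 an inhibitory kinase of CDK1. In slick oil 2 of 21 fell at that age, WEE1 and CCNG1 (log2 fold changes -0.83 and -0.29), near the 10.1% of all genes. Slick oil was lower than source oil for CCNG1, BTG1 and CDK4 (log2 fold changes -0.62, -0.85 and -0.64), 3 of 20 tested, against 9.85% of all genes. CDK4, a kinase of the first gap phase, rose in source oil at 24 hpf (log2 fold change 0.70, SE 0.15, adjusted p = 0.004). It was the single call of 32 tested, near the 3.98% of all genes that rose there.

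Further nucleotide synthesis genes differed in direction. At 24 hpf 3.98% of all genes rose in source oil, and at 48 hpf 1.92% in slick oil. Of these genes 4 of 21 rose in source oil at 24 hpf, led by MTHFD1, RRM2B and SHMT2 (log2 fold changes 0.46, 0.62 and 0.32), and at 48 hpf 1 of 18 rose in slick oil, RRM2B. At 72 hpf 6 of 17 were lower and 2 higher in source oil, led by IMPDH2, MTHFD2 and PFAS (log2 fold changes -0.92, 1.29 and -1.11). In slick oil 5 of 17 were lower, led by ADSL, DUT and IMPDH2 (log2 fold changes -0.49, -0.80 and -0.45). PFAS and IMPDH2 are enzymes of purine synthesis and MTHFD2 a mitochondrial folate enzyme. Between the oils 3 of 16 were lower and 3 higher in slick oil, against 9.85% and 7.61% of all genes. They were led by MTHFD2, PFAS and IMPDH2 (log2 fold changes -1.59, 0.92 and 0.49). The replication gene ATAD2 (log2 fold change -0.85) and the mitosis gene CKS1B (log2 fold change -1.02) were lower. They were the single calls of 18 and 17 tested, below the share of all genes. Between the control series at 48 hpf, CDCA7 (log2 fold change 0.64) and DCK (log2 fold change 1.13) were higher in the source series. They were the single calls of 33 and 18 tested, against 2.41% of all genes.

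Genes listed as neural progenitor markers were read beside the fall at 72 hpf. Their sum was 2485 to 2670 CPM in controls, 2709 to 2953 CPM in source oil and 2414 to 2493 CPM in slick oil. NOTCH1 alone had a mean of 1258 CPM in source oil and 1042 CPM in slick oil. Of 15 tested markers, 4 fell and 2 rose in source oil, among them DLL4 and RAX (log2 fold changes 0.92 and -1.92). Of all genes 9.04% fell and 11.4% rose there. In slick oil 2 of 15 fell, DLL1 and SOX11 (log2 fold changes -0.40 and -0.29), near the 10.1% of all genes. Slick oil was lower than source oil for 4 and higher for 1, led by DLL4, SOX11 and NOTCH1 (log2 fold changes -0.64, -0.32 and -0.26). Of all genes 9.85% were lower and 7.61% higher in that comparison. At 24 hpf 2 of 18 fell in source oil, where 1.44% of all genes fell, PAX6 and RAX (log2 fold changes -0.27 and -0.64). SOX9 was lower in source-series than in slick-series controls at 48 hpf (-0.37), 1 of 15 tested, against 2.04% of all genes. The list's median log2 fold change was -0.15 in source oil and -0.26 in slick oil. Which cells the reads of these genes came from is not known, and the part of neural progenitors in the members' fall was not tested.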

How the data were processed

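Whole-number read counts per human gene symbol were deposited by the authors in 6 tables of 56346 rows. HTSeq, DESeq2 and the human build hg19 are listed, without roles, per the submitters' processing notes. No source used here gives the aligner or the reference sequence. Log2 fold changes and adjusted p-values of the authors' DESeq2 fits stand in the deposited tables, per the file headers.

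Of 37 library columns 36 were matched to samples by header and label, giving 29 libraries in 10 of 12 labelled groups (36 samples), since 6 libraries stand in more than 1 table with identical counts; 1 column was not used. In the source-oil table of 24 hpf 2 control columns carry the name of control 1. The one numbered in sequence with controls 2 and 3 was taken, so the identity of that library is less sure, and without it 2 members were called as well. In the slick-oil table of 24 hpf, 1 control column carries the name of a 48 hpf library and was not used at that age. The 24 hpf source-oil table assigns counts differently: log2(CPM + 1) of its controls correlated across symbols at 0.93 with the slick-series controls, against 0.998 for both series at 48 hpf.

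Each comparison was fitted with edgeR 4.0.16 (R 4.3.3) on its 2 groups, with TMM scaling, filterByExpr and the quasi-likelihood F test, Benjamini-Hochberg adjusted over all genes tested. The SE is the size of the log2 fold change divided by the square root of F. Each fit was tested on simulated data. Alternatives were DESeq2 1.42.0, RLE scaling, no filter (at least 1 count), a joint fit of 23 libraries, the replicate number as a block, and leaving out each library. Replicates differed beyond counting error in every pair. The members, lists and alternatives were chosen with earlier results of these data known. Named throughout are PCNA, MCM2, MCM6, RRM2, CDK1, UBE2C, AURKB, TOP2A and MKI67; per comparison and role, the up to 3 called members with the smallest adjusted p; members called in at least 2 oil comparisons; and up to 3 called genes of each other list. Of the neural progenitor list, 1 gene that this rule names is not reported here.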

Additional observations from a re-analysis of the deposited data

Results flagged for a closer look

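Source oil and slick oil differed at 72 hpf in 4 members by a direct test between the 2 oil groups, which did not use the controls. They are 13.8% of 29 tested, near the 9.85% of all genes that were lower in slick oil. DESeq2 called 2 members, a count not set against its share of all genes called. PCNA lost its call without source oil library 2, and CDK1 without source oil library 1 or 2 or slick oil library 3. RRM2 was lower in slick oil, with a log2 difference of -0.87, at 97.8, 96.4 and 84.3 CPM against 172, 200.4 and 141 CPM in source oil. RRM1 differed by -0.56, PCNA by -0.66 and CDK1 by -0.48, and in all 4 genes each slick-oil library was below each source-oil library. The labelled concentrations, 2.50% and 0.27%, and the series differ along with the oil and cannot be told apart from it. At 48 hpf RRM2 was already higher in source-series than in slick-series controls, and the members' median log2 fold change was 0.34. No group has 4 libraries or more, so single libraries far from the rest of their group were not looked for.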

How the results depend on the processing

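Under RLE scaling all 184 called values of named members kept their call, as did 183 of 184 with no filter, 176 of 182 in the joint fit and 149 of 184 with DESeq2, and none changed direction. With a library left out 945 of 1058 kept it and 113 lost it, with none reversed. DESeq2 called 1 member in source oil at 24 hpf, 1 in slick oil at 24 hpf, 11 from 48 to 72 hpf in controls, 2 between the control series and 2 between the oils at 72 hpf. In slick oil at 24 hpf no filter gave 5 and the joint fit 1, and between the control series no filter gave 2. Leaving out a library gave 1 to 2 members in source oil at 24 hpf, 0 to 18 in slick oil at 24 hpf, 13 to 19 from 48 to 72 hpf in controls, 0 to 6 between the control series, 2 to 5 between the oils and 0 to 1 for the interaction. It was 2 without source oil 2 between the oils. Fits with a library left out also have fewer libraries, and the cause of these shifts was not tested. Counts of members in the alternative fits were not set against the share of all genes called in the same fit.

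The replicate block could be fitted at 24 hpf only, where headers carry the labels' numbers. Same-numbered deviations correlated at 0.143, 0.0248 and 0.136 in source oil and at -0.0147 and -0.0194 in slick oil. With 2 control libraries the 2 slick-oil values are not separate evidence. From so few pools these values cannot decide whether the numbers pair the samples. With the replicate block 3 members were called in source oil and 5 in slick oil, against 2 and 3 without. Slick oil library 1 has no control of the same number, so under the block it adds nothing to that comparison. Little is then left to measure the spread, and the slick-oil calls under the block are no firm check. In slick oil GINS2 lost its call under the block, at a log2 fold change of -0.64, while MCM6 and RRM2 kept theirs. No joint fit was possible for source oil at 24 hpf, whose table holds 2 groups, and source oil at 48 hpf could not be fitted.

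Values near 0 that were not called changed sign with a library left out. The log2 fold change ranged over -0.067 to 0.041 for MCM2, -0.12 to 0.12 for AURKB and -0.065 to 0.062 for TOP2A in source oil at 24 hpf. In slick oil at 48 hpf it ranged over -0.13 to 0.12 for MCM6, -0.040 to 0.16 for CDK1, -0.029 to 0.11 for TOP2A and -0.12 to 0.088 for PCNA. MKI67 ranged over -0.079 to 0.26 from 48 to 72 hpf in controls. Between the control series TOP2A ranged over -0.12 to 0.036 and CDK1 over -0.066 to 0.13, and between the oils UBE2C over -0.093 to 0.15 and TOP2A over -0.22 to 0.033. The interaction for MCM2 ranged over -0.17 to 0.19, and was -0.011 with DESeq2 and -0.010 with RLE scaling. Members with few counts were not tested, and nothing is said of their change.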
